A study of Mus musculus with 8 samples.

Results

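Class I PI3 kinases are the lipid kinases that turn the membrane lipid PIP2 into PIP3, and the genes described here encode 4 catalytic subunits (Pik3ca, Pik3cb, Pik3cd and Pik3cg), 3 regulatory subunits (Pik3r1, Pik3r5 and Pik3r6), an adaptor that recruits the kinase (Pik3ap1) and a phosphatase that removes PIP3 (Inpp5d). They were chosen by name, with earlier results of these data known, as 9 of the 55414 genes listed in the count files. All 9 passed the filter on low counts, which left 16778 genes. RNAseq libraries were made from spleen neutrophils, sorted as CD45+ CD11b+ Ly6G+ F4/80- cells, of 4 WT mice (strain FVB-WT) and 4 *Cxcr2-/-* mice (strain FVB-Cxcr2-/-), with 1 library per mouse. All 8 mice were untreated, 10 weeks old and kept in SOPF housing. The *Cxcr2-/-* mice lacked the chemokine receptor in every cell of the body, on DNA backcrossed into FVB, so that neutrophils developed without it and in a spleen without it. The comparison of the 4 *Cxcr2-/-* with the 4 WT libraries asks how the RNA of this signaling step differs in neutrophils that lack Cxcr2.

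In neutrophils, chemokine receptors such as Cxcr2 couple to a heterotrimeric G protein, whose beta and gamma subunits activate the kinase made of the catalytic subunit p110γ (Pik3cg) with one of its partners p101 (Pik3r5) or p84 (Pik3r6). The other catalytic subunits p110α (Pik3ca), p110β (Pik3cb) and p110δ (Pik3cd) pair with regulatory subunits of the p85 type, of which Pik3r1 encodes the main one, and are recruited to phosphorylated tyrosines on receptors and adaptors. PIP3 at the leading edge of the cell recruits kinases and exchange factors that drive migration, the oxidative burst and survival. Ship1, the product of Inpp5d, is the blood cell phosphatase that converts PIP3 into another lipid, PI(3,4)P2.

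*Cxcr2* itself, the targeted gene, had from 1719 to 2252 CPM (its count relative to the TMM-normalized size of the library) in WT and from 12.9 to 20.7 CPM in *Cxcr2-/-* libraries. Libraries held from 34220182 to 46233555 counts on genes in WT and from 37549648 to 43789253 in *Cxcr2-/-*. The counts of the 9 genes ranged from 3201 for Pik3ca to 36860 for Pik3cd in a library. Counting error was thus small beside the spread between mice for most of the genes, but less so for Pik3cb in WT, at 149 ± 3.38 CPM. Of 8 neutrophil markers, 5 were higher and 2 lower in *Cxcr2-/-* libraries at an adjusted p under 0.05 with edgeR, and their sum lay between 32928 and 46032 CPM in WT and between 66559 and 79749 CPM in *Cxcr2-/-* libraries. Ly6g, a gene of the sort, was between 166 and 263 CPM in WT and between 488 and 597 CPM in *Cxcr2-/-* libraries, while the receptor gene Csf3r was lower, between 6504 and 7470 CPM in WT and between 3164 and 3513 CPM in *Cxcr2-/-* libraries, and so was Ptprc, which encodes CD45. Of 6 T cell markers, 3 stayed under 1 CPM in all 8 libraries, the defining Cd3e among them, but Cd3d was between 80.1 and 136 CPM and Cd4 reached 14.1 CPM in WT. The T cell list summed to between 96.2 and 117 CPM in WT and between 90.2 and 139 CPM in *Cxcr2-/-* libraries, and 1 of its 3 tested genes (Cd4) was lower. B cell markers were present at low levels and summed to between 73.0 and 157 CPM in WT and between 32.4 and 72.8 CPM in *Cxcr2-/-* libraries over 8 genes. Markers of early granulocytes, such as the elastase gene Elane, summed to between 4.37 and 17.3 CPM in WT and between 70.5 and 386 CPM in *Cxcr2-/-* libraries over 5 genes, with *Cxcr2-/-* replicates 3 and 4 highest. Markers of monocytes and macrophages summed to between 536.6 and 641 CPM in WT and between 295 and 406 CPM in *Cxcr2-/-* libraries over 8 genes, mostly Csf1r, and the complement gene C1qa of that list was highest in WT replicate 2 at 5.79 CPM. The share of read pairs that met no gene was between 31.4% and 41.5% in WT and between 26.7% and 31.9% in *Cxcr2-/-* libraries. The part of any of these differences in the values of the 9 genes was not tested, apart from the fits given beside Pik3cg. In sorted cells as here, fewer cells of one stage with the RNA and less of the RNA in each cell cannot be told apart.

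Neutrophils of *Cxcr2-/-* mice held less RNA than WT neutrophils for 6 of the 9 genes, and more for none. Pik3r5 fell most, to 64.4% of its WT level, followed by Pik3cd, Pik3r1, Inpp5d, Pik3ca and Pik3cg, the last at 77.8%. Pik3cb, Pik3r6 and Pik3ap1 did not pass the test. Genes were called at a Benjamini-Hochberg adjusted p under 0.05 over all genes tested with edgeR's quasi-likelihood test, and by that rule 21.0% of the 16778 genes were lower and 23.7% were higher in *Cxcr2-/-* neutrophils. The median log2 fold change (*Cxcr2-/-* over WT) was -0.37 over the 9 genes and 0.01 over all genes tested. The study had already reported lower RNA of Pik3ca, Pik3cd, Pik3cg, Pik3r1 and Pik3r5, and of the related gene Pik3r2, in these same libraries. The counts and medians of the 9 genes therefore describe them and do not test them as a set. The study's rule for differential genes was an adjusted p under 0.05 with at least a 1.5-fold change, by DESeq2. The study does not say whether its PI3 kinase genes were held to that rule. Here Pik3ca (1.30-fold lower), Pik3cd (1.44-fold), Pik3cg (1.29-fold) and Pik3r1 (1.42-fold) fell short of 1.5-fold in the edgeR fit. The 6 genes that fell were also those without overlap between the CPM of the groups, where 19.1% of all genes tested were lower and 22.5% higher without overlap. Only the fall of Pik3r5 exceeded 1.5-fold as well (1.55-fold lower, 1 of 9 genes, where 15.7% of all genes tested were lower by that stricter rule). No gene of the 9 was higher at an unadjusted p under 0.05 (0 with edgeR), nor at an adjusted p under 0.05 with DESeq2 (0).

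**Figure D1:**
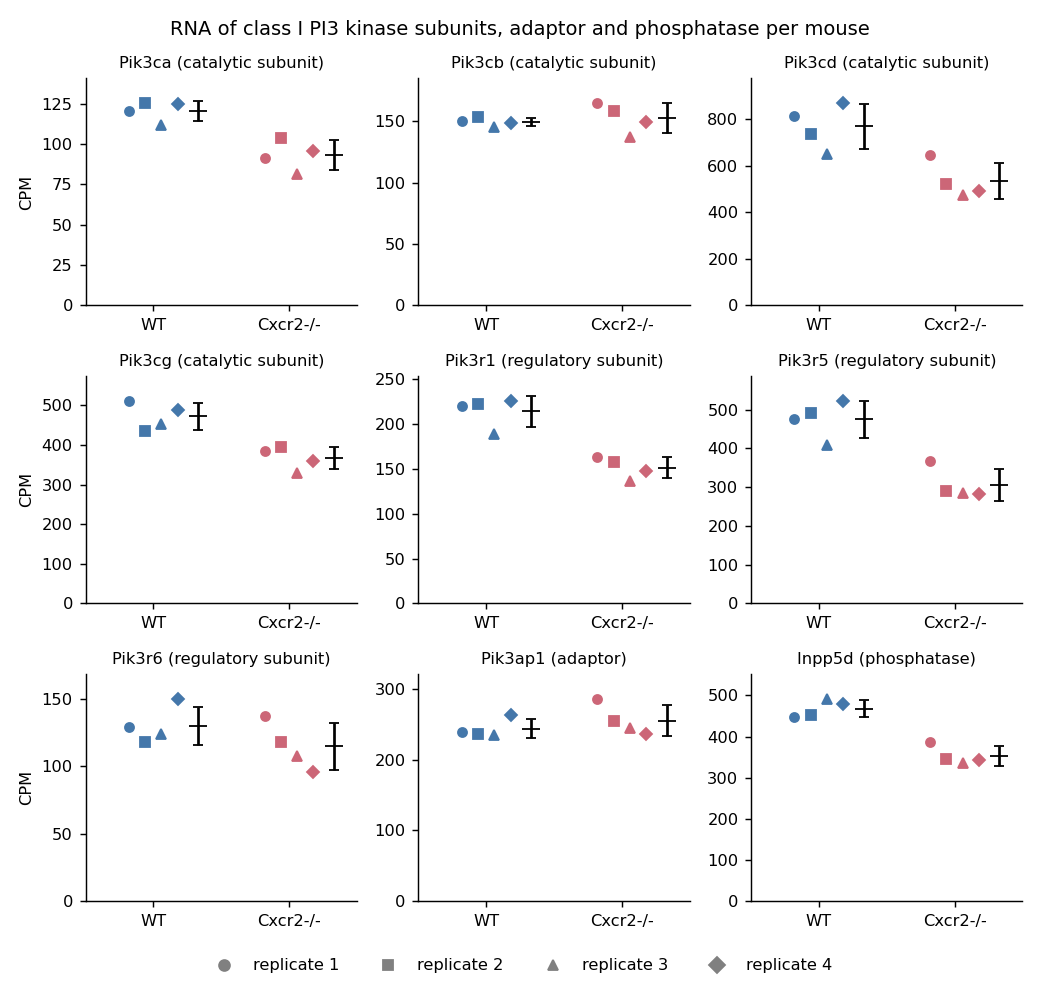
CPM (vertical axes, each from 0) of the 9 genes in the 4 WT (blue) and 4 *Cxcr2-/-* (red) libraries, with a symbol for each replicate and the mean ± SD in black. The *Cxcr2-/-* points lie below all WT points for Pik3ca, Pik3cd, Pik3cg, Pik3r1, Pik3r5 and Inpp5d, and the groups overlap for Pik3cb, Pik3r6 and Pik3ap1.

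The promoters of 4 of these genes are shown for genes whose RNA fell together (Pik3r5, Pik3cg and Inpp5d) and for one whose RNA did not pass (Pik3ap1). Each is the 300 bases from 250 before to 50 after the start of transcription in RefSeq (GRCm38.p6), written 5′ to 3′ on the strand of the gene, with matches on either strand to 5 short motifs in capitals. The motifs were AGGAAG (the core bound by ETS factors such as PU.1), GGGCGG (the GC box), TGANTCA (AP-1), TTNCNNAA (C/EBP) and CACGTG (the E-box). The windows lie at chr11:68431875-68432174 on the plus strand for Pik3r5, chr12:32208610-32208909 on the minus strand for Pik3cg, chr1:87620062-87620361 on the plus strand for Inpp5d and chr19:41385053-41385352 on the minus strand for Pik3ap1.
Pik3r5: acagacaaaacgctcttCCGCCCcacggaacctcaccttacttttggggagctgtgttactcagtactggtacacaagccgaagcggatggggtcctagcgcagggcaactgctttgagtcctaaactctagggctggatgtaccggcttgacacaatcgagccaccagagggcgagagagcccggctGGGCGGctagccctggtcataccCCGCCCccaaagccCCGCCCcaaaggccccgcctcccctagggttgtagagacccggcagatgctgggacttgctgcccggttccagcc
Pik3cg: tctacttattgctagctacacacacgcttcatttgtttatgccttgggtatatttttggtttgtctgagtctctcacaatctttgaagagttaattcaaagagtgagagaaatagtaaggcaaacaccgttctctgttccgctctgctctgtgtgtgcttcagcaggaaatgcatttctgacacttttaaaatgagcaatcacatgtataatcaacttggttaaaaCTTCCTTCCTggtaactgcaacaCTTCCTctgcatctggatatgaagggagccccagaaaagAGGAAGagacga
Inpp5d: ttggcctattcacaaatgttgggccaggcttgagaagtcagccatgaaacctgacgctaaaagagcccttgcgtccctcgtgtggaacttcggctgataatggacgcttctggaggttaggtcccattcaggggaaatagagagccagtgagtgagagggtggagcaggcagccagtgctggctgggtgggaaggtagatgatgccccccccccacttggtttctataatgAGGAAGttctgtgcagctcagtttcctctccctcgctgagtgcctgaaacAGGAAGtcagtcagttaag
Pik3ap1: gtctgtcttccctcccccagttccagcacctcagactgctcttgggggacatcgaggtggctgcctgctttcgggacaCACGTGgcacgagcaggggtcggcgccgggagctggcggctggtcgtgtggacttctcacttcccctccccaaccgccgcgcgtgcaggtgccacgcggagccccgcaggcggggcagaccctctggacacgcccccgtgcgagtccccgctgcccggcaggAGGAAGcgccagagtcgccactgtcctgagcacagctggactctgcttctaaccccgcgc
In these windows AGGAAG occurs 4 times for Pik3cg, where 2 of the matches overlap each other, 2 times for Inpp5d and 1 time for Pik3ap1. It is absent from the window of Pik3r5, which holds GGGCGG 4 times. Pik3cg has a second window, at another start (chr12:32208421-32208720, not shown), with AGGAAG 5 times and TTNCNNAA 2 times. Of all 32851 promoter windows, 35.4% hold AGGAAG and 35.7% hold GGGCGG, so both are common. The E-box of Pik3ap1 is a motif held by 7.15% of all windows. Promoters were found for 8 of the 9 genes, with 12 windows in all, and AGGAAG lies in 4 of these 12 and GGGCGG in 6. AP-1, held by 7.81% of all windows, was found in 1 of the 12 windows (Pik3ca), and C/EBP, held by 40.7%, in 3. The gene without a window was Pik3r6. These matches describe the letters of the windows only.

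Among the catalytic subunits, Pik3cd and Pik3cg, which encode the isoforms most restricted to blood cells, carried most of the RNA. Pik3cd (ENSMUSG00000039936), which lies on chromosome 4 (GRCm38, 149649168 to 149702571), had 815, 736, 652 and 870.1 CPM in WT replicates 1 to 4 and 644, 521, 474 and 492 CPM in the *Cxcr2-/-* replicates. The highest *Cxcr2-/-* library, replicate 1, lay just under the lowest WT library, replicate 3, and the other *Cxcr2-/-* libraries lay well below. The means were 768 ± 94.96 and 533 ± 76.5 CPM (SD, n = 4 each), a fall of 30.6% (log2 fold change -0.53, standard error 0.13, edgeR adjusted p = 0.00461).

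Pik3cg (ENSMUSG00000020573), on chromosome 12 from 32173473 to 32208659, encodes p110γ, the isoform that G protein-coupled chemokine receptors engage. It was at 512, 436, 452 and 489 CPM in the WT and at 384, 394, 329.9 and 360.2 CPM in the *Cxcr2-/-* libraries, without overlap. The fall was 22.2%, from 472 ± 34.4 to 367 ± 28.7 CPM (log2 fold change -0.36, standard error 0.10, edgeR adjusted p = 0.00943), the smallest of the 6 falls. It was also the one whose call rested most on the fit. With the B cell marker level as a covariate its log2 fold change was -0.37, with a standard error of 0.15 and an edgeR adjusted p of 0.0910. That level, a mean of log2 (CPM + 1), was from 2.78 to 3.81 in WT and from 1.99 to 2.87 in *Cxcr2-/-* libraries. It thus differed with genotype, and the fit separates it from genotype only poorly. Without *Cxcr2-/-* replicates 3 and 4 the log2 fold change of Pik3cg was -0.29, with an edgeR adjusted p of 0.0817. Over all 17 alternatives the adjusted p of Pik3cg ran from 7.85e-04 to 0.0910.

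Pik3ca (ENSMUSG00000027665), on chromosome 3 from 32397671 to 32468486, encodes the widely expressed p110α and was the lowest of the 9 genes per length. It was at 121, 126, 112 and 125 CPM in the WT and at 91.6, 104, 81.4 and 95.8 CPM in the *Cxcr2-/-* libraries, so that the highest *Cxcr2-/-* library stayed below the lowest WT library. The fall of 22.8% was -0.37 on the log2 scale (standard error 0.09, edgeR adjusted p = 0.00594). Pik3cb (ENSMUSG00000032462), on chromosome 9 from 99036654 to 99140621, encodes p110β, the other widely expressed isoform, which can respond to both G proteins and phosphotyrosines. Its values were 149.7, 153, 145 and 149 CPM in the WT and 165, 158, 137 and 149 CPM in the *Cxcr2-/-* libraries, and the WT values lay within the *Cxcr2-/-* range. The log2 fold change was 0.03 with a 95% interval from -0.16 to 0.22 (edgeR adjusted p = 0.798), and its sign turned with the scaling. That interval leaves out a fall as large as the one fitted for any of the other 3 catalytic genes.

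Expressed per length, as CPM per kilobase of exon, Pik3cd made up between 54.8% and 60.1% of the RNA of the 4 catalytic genes in WT libraries and between 50.9% and 56.7% in *Cxcr2-/-* libraries. The share of Pik3cb was between 8.93% and 10.6% in WT and between 12.6% and 13.6% in *Cxcr2-/-* libraries, without overlap. Pik3cg held between 25.1% and 28.2% in WT and between 25.1% and 28.6% in *Cxcr2-/-* libraries, and Pik3ca between 5.90% and 6.76% and between 5.56% and 6.98%. Only the share of Pik3cb thus had separate ranges, although its own CPM did not pass the test while the other 3 catalytic genes fell. The ranges of the shares of Pik3cd, Pik3cg and Pik3ca overlapped, and the mean share of Pik3cd was 57.6% in WT and 53.0% in *Cxcr2-/-* libraries.

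Pik3r1 (ENSMUSG00000041417), on chromosome 13 from 101680563 to 101768217, encodes p85α and shorter forms that stabilize and restrain the p110α, p110β and p110δ subunits. It was at 219.7, 223, 188 and 226 CPM in the WT and at 163, 158, 137 and 147 CPM in the *Cxcr2-/-* libraries. The lowest WT library (replicate 3) was above every *Cxcr2-/-* library, and the fall of 29.5% from 214 ± 17.4 to 151 ± 11.7 CPM was -0.50 on the log2 scale (standard error 0.10, edgeR adjusted p = 0.00101). Pik3r1 and Pik3cd fell by a similar amount, and the ratio of Pik3cd to Pik3r1 within a library lay between 5.32 and 6.20 in WT and between 5.32 and 6.36 in *Cxcr2-/-* libraries.

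The partners of p110γ are neighbours on chromosome 11, where Pik3r5 (ENSMUSG00000020901) runs from 68432121 to 68497849 and Pik3r6 (ENSMUSG00000046207) from 68503019 to 68552698 on the same strand, 5.17 kb apart. Pik3r5, which encodes p101, the partner that makes p110γ sensitive to G protein beta and gamma subunits, was at 477, 491, 408 and 523 CPM in the WT and at 366, 290.4, 285 and 281 CPM in the *Cxcr2-/-* libraries. *Cxcr2-/-* replicate 1 stood above the other three of its group and still below every WT library. The fall of 35.6%, from 475 ± 48.4 to 306 ± 40.7 CPM, was -0.64 on the log2 scale (standard error 0.12, edgeR adjusted p = 7.64e-04), the largest change and the smallest adjusted p of the 9 genes. Pik3r6, which encodes p84, the partner more tied to Ras, was at 129, 118, 124 and 149.9 CPM in the WT and at 137, 118, 108 and 95.6 CPM in the *Cxcr2-/-* libraries. The groups overlapped, and the log2 fold change of -0.18 (95% interval -0.44 to 0.08) had an adjusted p of 0.238 with edgeR. Under other scalings Pik3r6 did pass, with an adjusted p of 0.0323 by total counts and 0.0479 by the upper quartile, and over all 17 alternatives its adjusted p ran from 0.0323 to 0.813.

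Ratios between genes of one library do not depend on the scaling. The ratio of Pik3r5 to Pik3r6, in CPM per kilobase of exon, was 2.41, 2.73, 2.15 and 2.28 in the WT and 1.74, 1.61, 1.72 and 1.92 in the *Cxcr2-/-* libraries. Every *Cxcr2-/-* library thus had less p101 RNA per p84 RNA than any WT library, with an exact permutation p of 0.0286, two-sided, the smallest that 4 mice against 4 allow. The ratio of Pik3cd to Pik3cb was between 5.17 and 6.73 in WT and between 3.79 and 4.49 in *Cxcr2-/-* libraries, and the ratio of Pik3ca to Pik3cb between 0.610 and 0.664 and between 0.440 and 0.519, with the same exact p of 0.0286. The ratio of Pik3cg to Pik3r5 overlapped between the groups (0.585 to 0.730 in WT, 0.691 to 0.895 in *Cxcr2-/-*, exact permutation p = 0.0857), as did that of Pik3cg to Pik3cd (0.417 to 0.515 and 0.443 to 0.562, exact permutation p = 0.114). In all, 8 ratios were compared, chosen with the changes of the single genes known, and the Benjamini-Hochberg adjusted p of the 3 without overlap was 0.0762.

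Pik3ap1 (ENSMUSG00000025017), on chromosome 19 from 41272377 to 41385102, encodes BCAP, an adaptor that links receptors of B cells and Toll-like receptors to PI3 kinase. It was at 239, 236, 235 and 263 CPM in the WT and at 286, 255, 244 and 236 CPM in the *Cxcr2-/-* libraries, with overlapping groups. The log2 fold change was 0.07 (95% interval -0.14 to 0.27, edgeR adjusted p = 0.589), and its sign turned with the scaling.

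Inpp5d (ENSMUSG00000026288) lies on chromosome 1 from 87620312 to 87720507, 13.5 Mb from the end of the targeted *Cxcr2* gene on the same chromosome. Linkage to the targeted locus and the loss of the receptor cannot be told apart for a gene on that chromosome. Inpp5d was at 448, 453, 492 and 479 CPM in the WT and at 388, 345, 335 and 343 CPM in the *Cxcr2-/-* libraries. The groups were separate, with *Cxcr2-/-* replicate 1 the closest to WT, and the fall of 24.7% from 468 ± 21.1 to 352 ± 23.9 CPM was -0.41 on the log2 scale (standard error 0.09, edgeR adjusted p = 0.00295). The phosphatase RNA was therefore lower along with that of the kinase. The ratio of Pik3cg to Inpp5d, per kilobase of exon, was between 0.829 and 1.03 in WT and between 0.889 and 1.03 in *Cxcr2-/-* libraries (exact permutation p = 0.600). That of Pik3cd to Inpp5d was between 1.61 and 2.21 in WT and between 1.72 and 2.02 in *Cxcr2-/-* libraries (exact permutation p = 0.343). With 4 mice a group, these tests do not show that the ratios were equal.

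**Figure D2:**
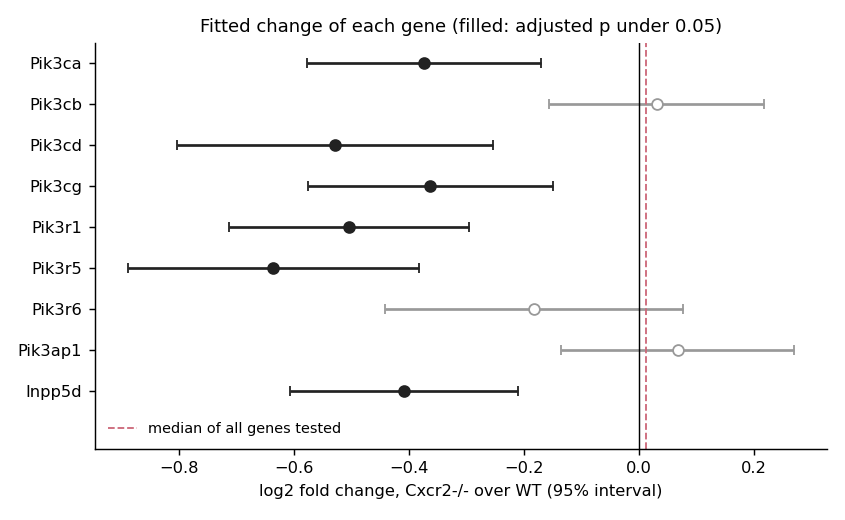
Log2 fold change (horizontal axis, *Cxcr2-/-* over WT) of the 9 genes from edgeR's quasi-likelihood fit, with 95% intervals, and the median of all genes tested as a dashed line. Filled points, from -0.64 for Pik3r5 to -0.36 for Pik3cg, had an adjusted p under 0.05, and the intervals of Pik3cb, Pik3r6 and Pik3ap1 include 0.

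**Figure D3:**
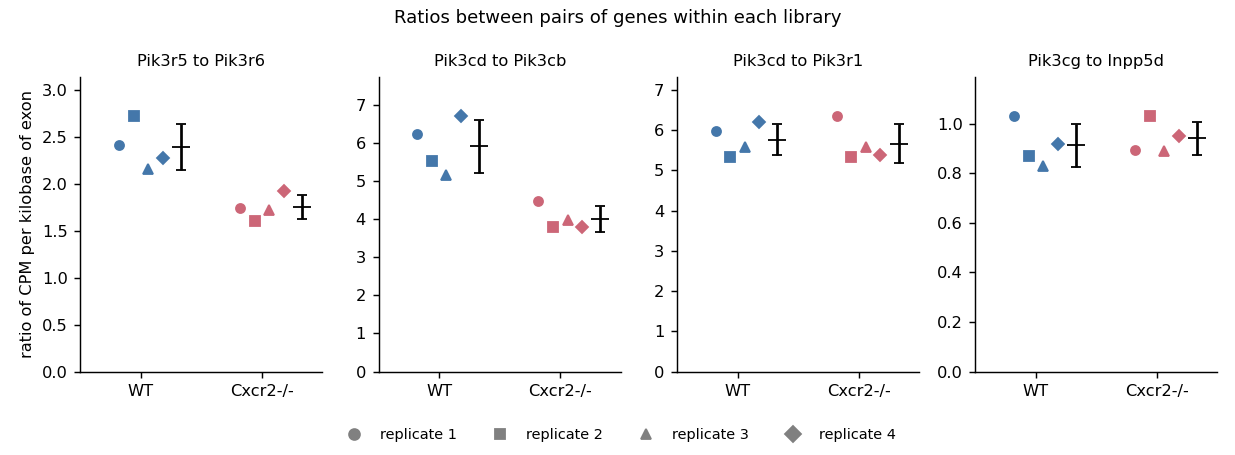
Ratio of the CPM per kilobase of exon of gene pairs (vertical axes from 0) in each WT (blue) and *Cxcr2-/-* (red) library, with the mean ± SD in black. The groups are separate for Pik3r5 to Pik3r6 and Pik3cd to Pik3cb, and they overlap for Pik3cd to Pik3r1 and Pik3cg to Inpp5d.

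Set in order by CPM per kilobase of exon, the WT levels ran from Pik3cd at 123 ± 15.2 through Pik3r5 at 85.5 ± 8.72, Inpp5d at 61.6 ± 2.78, Pik3cg at 56.0 ± 4.08, Pik3ap1 at 43.7 ± 2.40, Pik3r6 at 35.9 ± 3.88, Pik3r1 at 21.3 ± 1.73 and Pik3cb at 20.7 ± 0.471 to Pik3ca at 13.3 ± 0.696. The WT libraries did not separate Inpp5d from Pik3cg, nor Pik3r1 from Pik3cb, while all other neighbours in this order had separate ranges. In *Cxcr2-/-* libraries Pik3cd stayed highest at 85.1 ± 12.2 and Pik3ca lowest at 10.2 ± 1.03. Between them the order changed in 2 places. Pik3ap1, at 45.8 ± 3.94, stood above Pik3cg, at 43.6 ± 3.40, with overlapping ranges, and Pik3cb, at 21.2 ± 1.67, stood above Pik3r1, at 14.99 ± 1.16, with separate ranges. The ranges of Pik3r5, at 55.1 ± 7.34, and Inpp5d, at 46.4 ± 3.15, overlapped in *Cxcr2-/-* libraries, unlike in WT.

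By their pattern over the 8 libraries, the genes nearest to Pik3cd among 4225 genes whose log2 CPM averaged 5 or more were Stat5b and E4f1. Nearness was the root mean square difference of log2 (CPM + 1), centred on each gene's mean, which was 0.06 for both, where the median gene stood at 0.36. For Pik3r5 they were Tle3 and Ell, both at 0.05 (median 0.39). For Inpp5d they were Lcp2, the gene of the adaptor Slp76, and the kinase gene Syk, both at 0.05 (median 0.30). Their log2 fold changes ran from -0.65 for Ell to -0.32 for Syk, a direction fixed by their choice as nearest to genes that fell in the same libraries.

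Around the 9 genes, the rest of the pathway moved in both directions. Of 72 other genes of PI3 kinase signaling, 71 were tested, 19 of them were lower and 20 higher at an adjusted p under 0.05 with edgeR, or 26.8% and 28.2% beside 21.0% and 23.7% of all genes tested. Their median log2 fold change was 0.0019, beside 0.01 for all genes. The split leaned on the scaling, with 26 lower and 13 higher by the upper quartile, which moved the median of all genes to -0.11.

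The other class I regulatory genes were low. Pik3r2, which encodes p85β, fell from 28.5 ± 4.71 to 18.2 ± 2.54 CPM (log2 fold change -0.64, edgeR adjusted p = 0.00220) without overlap. Pik3r3, with 0.229 ± 0.0997 CPM in the WT and 0.337 ± 0.0703 CPM in the *Cxcr2-/-* group, did not pass (edgeR adjusted p = 0.286). Of 7 other phosphoinositide phosphatases, 2 were lower and 1 higher. Inpp4b, whose product acts on the lipid that Ship1 makes, fell from 4.70 ± 0.907 to 2.64 ± 0.354 CPM, and Inpp5j rose from 6.09 ± 0.929 to 18.9 ± 2.95 CPM, with log2 fold changes of -0.84 and 1.64. Among class II and class III PI3 kinases, which make other lipids, 1 gene was lower and 2 were higher of 4 tested, and Pik3c2b rose with a log2 fold change of 0.65.

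Of 16 genes that feed into class I PI3 kinase, 4 were lower and 6 higher. Gab2, a docking protein that recruits p85, fell from 166 ± 14.4 to 82.4 ± 9.01 CPM, with all *Cxcr2-/-* libraries below all WT libraries (log2 fold change -1.01, edgeR adjusted p = 9.01e-06). Pik3ip1, which encodes a membrane inhibitor of the kinase, fell from 8.42 ± 1.596 to 3.96 ± 0.604 CPM (log2 fold change -1.09). Gab1 passed as higher (log2 fold change 1.95, standard error 0.65, edgeR adjusted p = 0.0271), but at levels of 0.206 ± 0.0618 and 0.795 ± 0.667 CPM and with overlapping groups. Of 5 adaptors that bind Ship1, Dok2 was the one called, and it rose from 21.2 ± 2.49 to 46.1 ± 6.26 CPM.

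Of 6 kinases that PIP3 recruits or activates, 2 were lower and none was higher, and Tec fell from 33.2 ± 1.63 to 19.9 ± 1.70 CPM (log2 fold change -0.73). Of 12 exchange factors, GTPase-activating proteins and adaptors that bind PIP3, 4 were lower and 2 higher. Rasa3, which encodes a GTPase-activating protein, fell most, from 501 ± 62.0 to 219 ± 8.42 CPM (log2 fold change -1.19, edgeR adjusted p = 2.81e-06). Prex1, the exchange factor for Rac that PIP3 and G protein beta and gamma subunits activate together, fell from 923 ± 145 to 604 ± 100.3 CPM (log2 fold change -0.61, edgeR adjusted p = 0.00424), and its groups overlapped. Plekha1 was lower and Plekha2 higher, with log2 fold changes of -0.83 and 0.71.

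Of 17 AKT targets and components of the mTOR complexes, 4 were lower and 8 higher. Cdkn1b, the cell cycle inhibitor p27, fell from 425 ± 35.6 to 217 ± 26.4 CPM (log2 fold change -0.97). The mTOR complex genes Mlst8 and Rptor and the Bcl2 family gene Bad rose, with log2 fold changes of 1.23, 0.64 and 0.70. Phlpp1, which encodes a phosphatase of AKT, fell from 18.9 ± 2.32 to 9.33 ± 1.66 CPM (log2 fold change -1.02), and Phlpp2 did not pass (log2 fold change -0.39, edgeR adjusted p = 0.304).

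**Figure D4:**
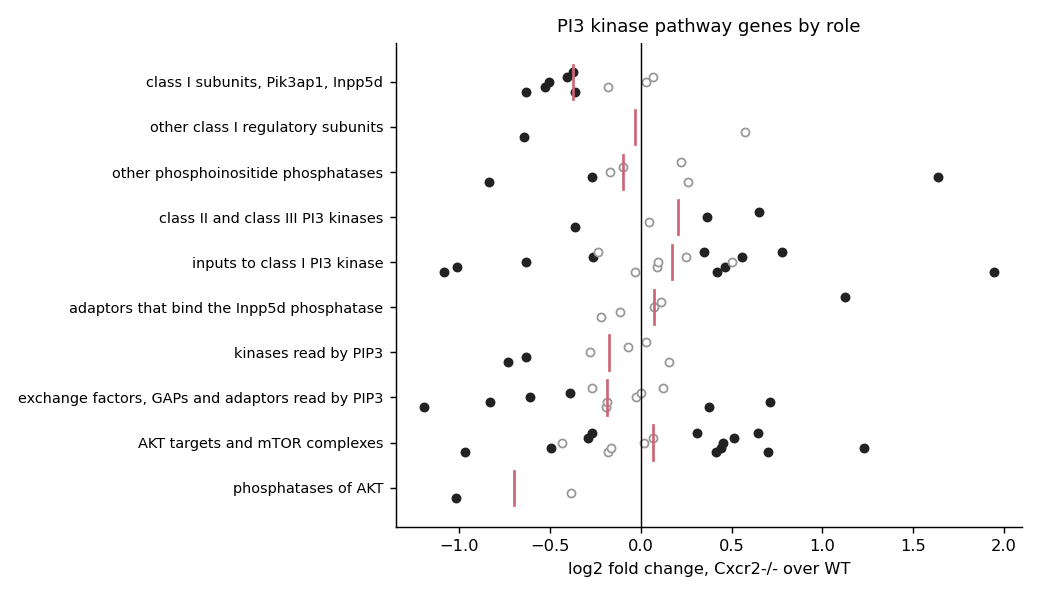
Log2 fold change (horizontal axis, *Cxcr2-/-* over WT) of the 9 genes in the top row and of the 71 other tested pathway genes by role, with filled points for an adjusted p under 0.05 and a red bar for the median of each row. The 9 genes have a median of -0.37, and the other rows hold called genes on both sides of 0 or few called genes.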

How the data were processed

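The authors depleted ribosomal RNA, prepared strand-specific libraries for paired-end sequencing, and used Trimmer before aligning to mm10 with STAR and counting on genes with HTSeq. The deposited counts are whole numbers per gene without normalization. The annotation and the strand setting of the counting are not given in the sources used here. Of 55414 gene identifiers, 52081 matched GENCODE M21 (GRCm38), but only 35 with the same version. Coordinates and exon lengths are those of M21 and may differ from the gene models that were counted. The levels, shares, ratios and order per kilobase of exon carry that limit. No gene of M21 shares exon bases with any of the 9 genes. The counting program's own totals (42.4% to 53.6% of all pairs) were left out.

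Counts were tested in R 4.3.3 with edgeR 4.0.16 (quasi-likelihood test, TMM, filterByExpr, Benjamini-Hochberg adjustment over all genes tested), and DESeq2 1.42.0, the tool of the study, was an alternative. The steps were also run on simulated data, in which fewer genes changed and by more than the 9 genes did here. Calls of changes as small as these were not tested there. SciPy 1.17.1 gave the exact permutation tests. Library groups came from the sample labels, which give no batch and do not say whether mice shared a litter. The libraries of each group differed by more than sampling noise. The 9 genes and the lists were chosen with earlier results of these data known. Named are the 9 genes, Cxcr2, genes nearest in pattern, marker genes, members of pathway groups of 3 or fewer genes, and up to 3 genes in each direction per pathway group with the smallest adjusted p among those called with at least a 1.5-fold change, of which 3 are not reported here. The alternatives were DESeq2, RLE, upper quartile and total count scaling, 2 other filters, the replicate block, a B cell marker covariate, a 1.5-fold rule and each library left out. Leaving out *Cxcr2-/-* replicates 3 and 4 was chosen after seeing the data. For single genes, the 17 alternatives include that fit and leave out the 1.5-fold rule.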

Additional observations from a re-analysis of the deposited data

Results flagged for a closer look

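Of 18 groups of 4 libraries (9 genes in 2 genotypes), 3 held a library whose gap to the nearest other, divided by the range of its group, exceeded the critical value of Dixon's test (0.829), where chance gives about 1 in 20. Pik3r5 was at 366 CPM in *Cxcr2-/-* replicate 1, above the other three, with a gap of 0.889. Without that library its log2 fold change was -0.73. Pik3r1 was at 188 CPM in WT replicate 3, below the others, with a gap of 0.830, and without it the log2 fold change was -0.58. Pik3ap1 was at 263 CPM in WT replicate 4, above the others, with a gap of 0.841, and without it the log2 fold change was 0.11 (edgeR adjusted p = 0.456, over all alternatives 0.386 to 0.924).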

How the results depend on the processing

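Of the 6 genes that fell, Pik3ca, Pik3cd, Pik3r1, Pik3r5 and Inpp5d stayed lower with an adjusted p under 0.05 in all 17 alternatives. Pik3cg did so in 15 of 17. The 1.5-fold rule is not among these 17, and the fit without *Cxcr2-/-* replicates 3 and 4 is. With each library left out in turn, 6 of 9 genes were lower in every fit. The count was 1 with the 1.5-fold rule, 7 with total count or upper quartile scaling and 5 with the B cell marker covariate or without *Cxcr2-/-* replicates 3 and 4. The log2 fold change of Pik3cb turned to -0.089 by the upper quartile, -0.062 by total counts, -0.0069 with at least 10 counts in every library and -0.063 with the B cell covariate, and ran from -0.0038 to 0.068 with a library left out. That of Pik3ap1 turned to -0.053, -0.026 and -0.038 by the upper quartile, total counts and the B cell covariate. The pathway list had 13 genes higher by the upper quartile, 8 with the B cell covariate, and 9 higher and 12 lower by the 1.5-fold rule. Over all genes, the B cell covariate gave 2566 higher and 2228 lower (3969 and 3526 without it) and the 1.5-fold rule 2628 higher. The causes were not tested, apart from the stricter rule itself. Of all calls, 53.0% were higher with TMM and 41.2% by the upper quartile. Same-numbered libraries, centred on the mean of their group, had correlations from -0.31 to 0.24 over genes, and 2 of 4 WT libraries correlated best with their own number. These values do not decide whether the replicate number of the labels pairs the mice. With the replicate number as a block, 6 of the 9 genes were lower, and 3349 genes were lower and 3719 higher over all.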
